A study of Homo sapiens with 10 samples.

Results

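SNAP29 and the SNARE proteins with which it drives membrane fusion were examined at the transcript level in head and neck cancer cells given the microRNA miR-7. The genes were chosen by name: SNAP29, its relative SNAP23, the syntaxins STX17, STX7, STX3 and STX4, the vesicle SNAREs VAMP8, VAMP7 and YKT6, and NAPA, which helps to take spent SNARE complexes apart. All probes annotated to these names were read, which gave 12 probes for 10 genes on each of the 2 array types, out of 20741 genes with a named probe on either. SNAP29 headed the choice because it was among the genes with the largest change in both cell lines, so its values are given as a description with no test, and it is left out of every count of genes called.

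HN5 and FaDu are established lines, each grown from a squamous tumour of the human head and neck. In HN5, 2 arrays came from cells transfected with the miR-7 precursor and 2 from cells transfected with miR-NC, a negative-control precursor. In FaDu, 3 arrays were labelled miR-7 and 3 were labelled miR-NC. Total RNA was taken 24 h after transfection, every array is labelled as a biological replicate, and each line was run on its own type of Illumina BeadChip, so levels are compared within a line only. The arrays carry no untransfected cells, so each value is set against miR-NC.

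SNARE proteins bring membranes together by winding helices into a tight bundle, with a syntaxin (the Qa helix) and a SNAP protein (the Qb and Qc helices) on one membrane and a VAMP-type protein (the R helix) on the other. SNAP29 is the Qbc partner of syntaxin 17 and VAMP8 in the fusion of autophagosomes with lysosomes, and YKT6 can supply the R helix there with syntaxin 7. SNAP23, syntaxin 3 and syntaxin 4 act mainly at the plasma membrane, in secretion and in the delivery of membrane proteins. VAMP7 serves late endosomes and secretory lysosomes. After fusion, alpha-SNAP, the product of NAPA, recruits the ATPase NSF, which pulls the bundle apart for another round.

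The transfected microRNA is shown because its seed, bases 2 to 8, sets which transcripts it can pair with. Human miR-7-5p comes from several loci, and its mature sequence was read here at MIR7-1 (chr9:83969811-83969834, minus strand) and MIR7-3 (chr19:4770700-4770723, plus strand) from RefSeq on GRCh38.p14. It is 24 bases long there, with the seed in capitals, and the run of bases that pairs with that seed is GUCUUCC.
hsa-miR-7-5p: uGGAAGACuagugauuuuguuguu

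Levels are log2 intensities corrected for background and quantile-normalized, line by line, and differences are log2 fold changes of miR-7 over miR-NC with their standard errors (SE). A gene was tested in a line when a probe had a detection p-value under 0.01 (below, "detected") on all arrays of 1 group or more. This left 9549 genes in HN5 and 9997 in FaDu, and calls were made with limma at a Benjamini-Hochberg adjusted p under 0.05 over all of them. Median intensities per array were 114.5 to 158.5 in HN5 and 114.4 to 148.9 in FaDu. The HN5 array of miR-7 replicate 2 was the least like the rest of its line, with correlations of 0.969 to 0.974 against 0.991 between the miR-NC arrays. All 6 epithelial markers with a named probe were detected on every array of both lines, whereas 3 of 6 fibroblast markers were undetected on every HN5 array and 6 of 6 on every FaDu array. Of the markers of other cell types, COL1A1 (fibroblasts) and PECAM1 (endothelium) were detected on every HN5 array, CDH5 (endothelium) on every FaDu array and CD14 (myeloid cells) on every array of both lines, whereas PTPRC and CD3E, of leukocytes, were detected on none. In these bulk samples, fewer cells making a transcript and less transcript per cell cannot be told apart.

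EGFR, the receptor kinase that is an established target of miR-7, served as a check of the labels. In HN5 its log2 level was 12.11 and 12.05 on the miR-7 arrays against 13.81 and 13.68 on the miR-NC arrays, a log2 fold change of -1.67 (SE 0.18, adjusted p = 0.0492). In FaDu it was 9.61, 9.48 and 9.46 on the arrays labelled miR-7 against 7.91, 7.98 and 7.94 on those labelled miR-NC, a log2 fold change of 1.57 (SE 0.07, adjusted p = 2.6e-06). The direction that these labels give in FaDu is opposite to the one the study describes for this line. All FaDu values below go by the labels, and every FaDu direction depends on them.

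SNAP29 stood far below the control in HN5. Its log2 level was 7.18 and 7.05 on the miR-7 arrays and 9.10 and 8.93 on the miR-NC arrays, with no overlap. The group means were 7.11 ± 0.09 and 9.02 ± 0.13 (SD, n = 2 each), which is a log2 fold change of -1.90 (SE 0.19), or 3.74-fold lower with miR-7. Before any correction, the scanner intensities of the same probe were 260.5 and 185.5 with miR-7 and 875.9 and 535.2 with miR-NC. Of the 9549 genes tested, 135 had a lower fold change than SNAP29.

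In FaDu as labelled, SNAP29 moved by nearly the same amount in the other direction. Its log2 level was 8.03, 7.86 and 7.83 on the arrays labelled miR-7 and 5.84, 6.15 and 6.20 on the arrays labelled miR-NC, again with no overlap. The means were 7.91 ± 0.11 and 6.06 ± 0.19 (SD, n = 3 each), a log2 fold change of 1.84 (SE 0.11), or 3.59-fold higher in the arrays labelled miR-7. The intensities were 332.4, 339.6 and 304.6 against 140.4, 172.5 and 209.3. The lowest, on the array labelled miR-NC replicate 1, had a detection p-value of 0.00519, where the median intensity of that array was 114.4. Of the 9997 genes tested, 34 had a higher fold change. The size of the change was smaller under other processing: 1.02 without background correction, and 0.72 on the authors' own log2 values.

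**Figure D1:**
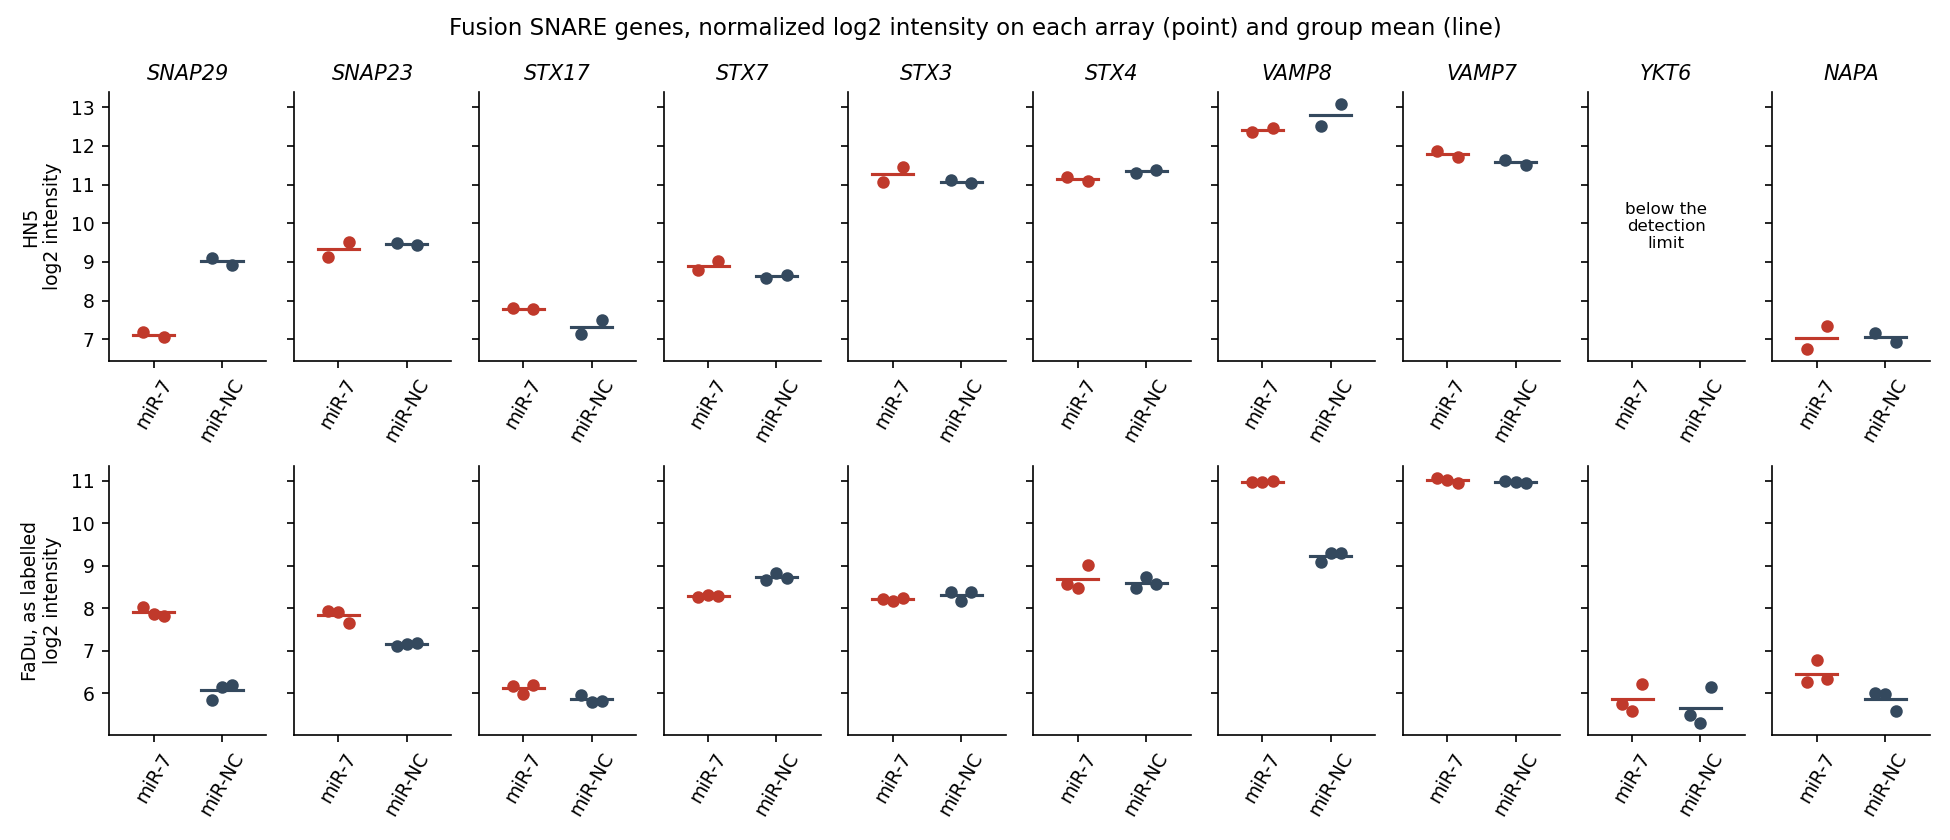
Normalized log2 intensity (vertical axis) of each of the 10 genes on each array, with miR-7 in red left of miR-NC in dark blue, HN5 in the upper row and FaDu as labelled in the lower row; points are arrays and lines are group means. SNAP29 was apart in both lines in opposite directions (means 7.11 against 9.02 in HN5, 7.91 against 6.06 in FaDu), VAMP8 was apart by a similar amount in FaDu (means 10.98 against 9.23), and YKT6 lay below the detection limit in HN5.

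Apart from SNAP29, 0 of the 8 genes tested in HN5 passed, against 0.304% of all genes, and 0 of 8 reached an unadjusted p under 0.05, against 13.2% of all genes. Their median log2 fold change was 0.09, with a range of -0.39 to 0.47, beside a median of 0.04 over all genes. The groups did not overlap for 5 of the 8 (STX17, STX7, STX4, VAMP8 and VAMP7), a share to be read against 48.2% of all genes with 2 arrays a group. In FaDu, 5 of 9 passed, 4 of them higher and 1 lower in the arrays labelled miR-7, against 41.8% of all genes (20.0% higher and 21.8% lower). Without the array labelled miR-NC replicate 3, VAMP8 and SNAP23 remained as the 2 higher genes, where 36.7% of all genes passed. The FaDu median was 0.21, beside -0.03 over all genes, and the groups did not overlap for 5 of 9, against 53.5% of all genes. That median was the value of YKT6, which passed the detection filter only through the arrays labelled miR-7, where its mean was higher. The shares of these genes called are therefore set against a background in which calls were rare in HN5 and frequent in FaDu.

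Of the other Qbc protein, SNAP23, the ubiquitous relative of the neuronal SNAP25, the HN5 arrays showed no separation. Its log2 level was 9.13 and 9.52 on the miR-7 arrays and 9.48 and 9.44 on the miR-NC arrays, so that miR-7 replicate 1 lay below and replicate 2 above both controls. The log2 fold change was -0.14 (SE 0.21, 95% interval -0.67 to 0.39, adjusted p = 0.789). In FaDu SNAP23 was higher on every array labelled miR-7, at 7.94, 7.91 and 7.66, than on any labelled miR-NC, at 7.11, 7.16 and 7.18. The log2 fold change was 0.69 (SE 0.09, adjusted p = 0.000437), which is 1.61-fold. It was 0.44 without background correction and 0.33 on the authors' log2 values, and passed in both. The dimmer of its probes had a log2 fold change of 0.47 in FaDu (adjusted p = 0.0061 over all probes), the same sign as the brighter probe. In HN5 the dimmer probe was detected on 3 of 4 arrays and did not pass, at -0.25 (SE 0.28, adjusted p = 0.699 over all probes). Its sign there is no support for the brighter probe.

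Syntaxin 17, which autophagosomes take up before they meet lysosomes, passed narrowly in FaDu and not in HN5. In HN5 its log2 level was 7.79 and 7.77 on the miR-7 arrays and 7.13 and 7.49 on the miR-NC arrays, apart from each other but with a fold change of 0.47 (SE 0.21) that did not pass (adjusted p = 0.408). In FaDu it was 6.17, 5.97 and 6.19 on the arrays labelled miR-7 and 5.96, 5.79 and 5.81 on those labelled miR-NC, where the lowest array labelled miR-7 lay just above the highest labelled miR-NC. The fold change was 0.26 (SE 0.09, adjusted p = 0.0417), and it was 0.10 without background correction and 0.06 on the authors' log2 values. The call was lost in 10 of 16 other ways of processing or leaving out arrays.

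Syntaxin 7, a Qa SNARE of late endosomes and lysosomes, was the member that fell in FaDu. Its log2 level was 8.26, 8.32 and 8.30 on the arrays labelled miR-7 and 8.67, 8.83 and 8.71 on those labelled miR-NC, a fold change of -0.44 (SE 0.07, adjusted p = 0.00143), or 1.36-fold lower. It was -0.29 on the authors' log2 values, where it also passed. Every array labelled miR-7 lay below every array labelled miR-NC. In HN5 STX7 was at 8.78 and 9.03 with miR-7 and at 8.59 and 8.66 with miR-NC, a fold change of 0.28 (SE 0.19, adjusted p = 0.532). A further probe of STX7 was detected on 0 of the arrays of either line and gave no further reading.

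The plasma membrane syntaxins passed in neither line. Syntaxin 3, known from apical membranes of epithelia, was at 11.08 and 11.46 with miR-7 and 11.13 and 11.03 with miR-NC in HN5, a fold change of 0.19 (SE 0.21, 95% interval -0.34 to 0.72, adjusted p = 0.700). In FaDu STX3 was at 8.22, 8.17 and 8.25 on the arrays labelled miR-7 and at 8.39, 8.17 and 8.38 on those labelled miR-NC, a fold change of -0.10 (SE 0.08, 95% interval -0.28 to 0.09, adjusted p = 0.372). The groups overlapped in both lines.

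Syntaxin 4, the basolateral and general plasma membrane syntaxin, was at 11.19 and 11.10 with miR-7 and 11.31 and 11.38 with miR-NC in HN5, a fold change of -0.19 (SE 0.18, 95% interval -0.64 to 0.25, adjusted p = 0.641). In FaDu STX4 was at 8.57, 8.47 and 9.03 on the arrays labelled miR-7 and at 8.47, 8.74 and 8.56 on those labelled miR-NC, a fold change of 0.10 (SE 0.14, 95% interval -0.23 to 0.43, adjusted p = 0.614). The array labelled miR-7 replicate 3 was the highest of the 6, and without it the FaDu fold change was -0.07.

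Among the R-SNAREs, VAMP8 partners SNAP29 on lysosomes and also serves regulated secretion. In the main setting, VAMP8 had a change in FaDu close in size to that of SNAP29. Its log2 level was 10.97, 10.98 and 11.01 on the arrays labelled miR-7 and 9.10, 9.29 and 9.29 on those labelled miR-NC. The arrays of each label lay close together and far from the other label. The log2 fold change was 1.76 (SE 0.08, adjusted p = 2.3e-06), or 3.38-fold up under the miR-7 label, and 41 of 9997 genes had a higher one. The scanner intensities were 1922.0, 2206.6 and 2024.8 against 553.2, 729.2 and 940.0, and the probe was detected on all 6 arrays. VAMP8 passed under all 16 alternatives, with fold changes of 1.54 to 1.79. It was 1.60 beside 1.02 for SNAP29 without background correction, and 1.54 beside 0.72 on the authors' log2 values. The study placed VAMP8 among its changed genes in FaDu from these same arrays, so the call is no independent evidence. The study's FaDu list is of genes it describes as downregulated by miR-7, the opposite of the direction these labels give.

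In HN5 VAMP8 was at 12.35 and 12.45 on the miR-7 arrays and at 12.50 and 13.08 on the miR-NC arrays. Both miR-7 arrays lay below both miR-NC arrays, but miR-NC replicate 1 was nearer to them than to its own replicate. The fold change was -0.39 (SE 0.25, 95% interval -1.01 to 0.23, adjusted p = 0.515), and it was -0.10 without miR-NC replicate 2.

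VAMP7 held nearly the same level on all FaDu arrays. It was at 11.06, 11.03 and 10.95 on the arrays labelled miR-7 and at 11.001, 10.97 and 10.96 on those labelled miR-NC, a fold change of 0.04 (SE 0.07, 95% interval -0.11 to 0.19, adjusted p = 0.681). In HN5 VAMP7 was at 11.87 and 11.71 with miR-7 and at 11.63 and 11.51 with miR-NC, a fold change of 0.22 (SE 0.19, adjusted p = 0.612).

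YKT6, the lipid-anchored R-SNARE, was near the detection limit throughout. Its probe was detected on 0 of 4 HN5 arrays, with intensities of 123.1 to 178.1, and the gene was not tested there. In FaDu it was detected on 4 of 6 arrays, 3 of 3 labelled miR-7 and 1 of 3 labelled miR-NC. It thus entered the test only through the group with the higher mean. Its log2 levels were 5.75, 5.58 and 6.22 on the arrays labelled miR-7 and 5.49, 5.30 and 6.14 on those labelled miR-NC. The groups overlapped, and the fold change was 0.21 (SE 0.23, 95% interval -0.31 to 0.73, adjusted p = 0.498).

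NAPA was level between the groups in HN5, at 6.75 and 7.33 with miR-7 and 7.16 and 6.94 with miR-NC, a fold change of -0.01 (SE 0.26, 95% interval -0.65 to 0.63, adjusted p = 0.993). In FaDu it was at 6.25, 6.77 and 6.32 on the arrays labelled miR-7 and at 6.00, 5.97 and 5.57 on those labelled miR-NC, with no overlap. Before correction and normalization its scanner intensities were low and overlapped, at 164.2, 213.7 and 171.1 against 146.1, 164.1 and 175.1. Median intensities of the FaDu arrays were 114.4 to 148.9. The fold change was 0.60 (SE 0.16, adjusted p = 0.0177), or 1.52-fold higher. It was 0.25 without background correction and 0.16 on the authors' log2 values. The call was lost without the array labelled miR-NC replicate 3, where the fold change was 0.46 (adjusted p = 0.0511). The methods' t-test did not call it after adjustment either (adjusted p = 0.111).

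**Figure D2:**
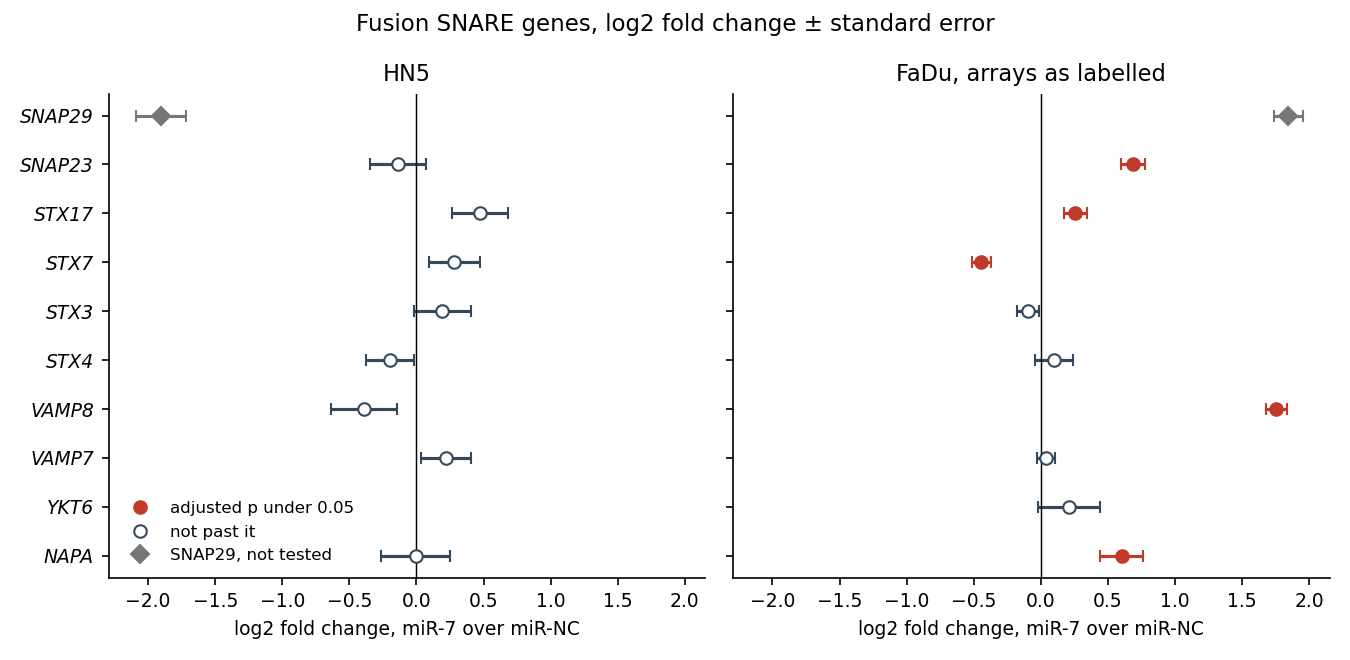
Log2 fold change of miR-7 over miR-NC (horizontal axis) with its standard error for each gene in HN5 and in FaDu as labelled; filled red points passed an adjusted p of 0.05, open points did not, and grey diamonds are SNAP29, which was not tested. No open point in HN5 lies beyond -0.39 or 0.47, while VAMP8 in FaDu, at 1.76, lies beside SNAP29, at 1.84.

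The change was then compared between the lines, as the log2 fold change in HN5 minus that in FaDu, for the 10566 probes detected on both array types, of which 15.4% passed. VAMP8 passed, at -2.15 (SE 0.26, adjusted p = 0.00406), and was the only one of the 8 genes tested. Leaving out HN5 miR-NC replicate 2 ended the call (-1.86, adjusted p = 0.0612), in a setting where 1.58% of all probes passed. SNAP23, at -0.82 (SE 0.23, adjusted p = 0.0543), and STX7, at 0.73 (SE 0.21, adjusted p = 0.0596), fell short of the threshold. NAPA was at -0.61 (SE 0.31, adjusted p = 0.211). The differences of STX17, STX3, STX4 and VAMP7 lay between -0.29 and 0.29, with adjusted p of 0.405 to 0.565. For SNAP29 the difference was -3.75 (SE 0.22), given with no test.

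This comparison rests on the FaDu labels. With the sign of every FaDu fold change turned, a setting chosen after seeing the data, 0.265% of probes and 0 of the 8 genes passed. VAMP8 then stood at 1.37 (SE 0.26, adjusted p = 0.157), with a fold change of -0.39 in HN5 beside -1.76 in FaDu. SNAP29 then stood at -0.06 (SE 0.22), with -1.90 beside -1.84. It was chosen for a large change in both lines, so these sizes are a description only. The cause of the opposite directions was not tested.

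Beyond these genes, 62 others of the fusion machinery were listed in 4 groups. In HN5, 0 of the 54 tested passed, against 0.304% of all genes, 6 (11.1%) reached an unadjusted p under 0.05, against 13.2%, and the median log2 fold change was 0.12. Among these 6, SCFD2 was detected on 0 of 2 miR-7 arrays and on 2 of 2 miR-NC arrays. It thus entered the HN5 test only through the group where it is high. When miR-7 replicate 1 was left out, 5 passed as lower and 3 as higher, in a setting where 18.1% of all genes passed. Among the 53 tested in FaDu, the arrays labelled miR-7 had 9 genes lower and 10 higher, which is 35.8% against 41.8% of all genes, and the median was 0.03. Of the 10 higher genes, SCFD2 passed the detection filter only through the arrays labelled miR-7, and 9 remained without it. Median scaling gave 6 lower and 5 higher, where 27.03% of all genes passed, and without the array labelled miR-7 replicate 3, 5 were lower and 8 higher, where 32.4% passed. STX5 and STX6 belong to the genes that the study picked from these arrays as downregulated by miR-7, so their place here is not independent evidence. The FaDu labels give both genes the opposite direction, higher with miR-7.

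Other SNAREs passed in 8 of 23 cases in FaDu, 2 as lower and 6 as higher with the miR-7 label, or 34.8% against 41.8% of all genes (21.8% lower and 20.0% higher). Syntaxin 5, which acts between the endoplasmic reticulum and the Golgi, was at 10.01, 9.95 and 9.89 on the arrays labelled miR-7 and 8.56, 8.33 and 8.52 on those labelled miR-NC, a fold change of 1.48 (SE 0.08, adjusted p = 5.7e-06). Syntaxin 6, of the trans-Golgi network and endosomes, had a fold change of 1.03 (SE 0.07, adjusted p = 1.4e-05). Syntaxin 2, a plasma membrane syntaxin, was at 8.04, 8.11 and 8.12 on the arrays labelled miR-7 and 8.86, 8.95 and 8.997 on those labelled miR-NC, a fold change of -0.85 (SE 0.07, adjusted p = 4.1e-05). STX19, an unusual syntaxin with no membrane-spanning part, had a fold change of 0.71 (SE 0.11, adjusted p = 0.00138). The remaining 4 that passed, VAMP2, STX10, VAMP4 and GOSR2, lay between -0.46 and 0.43.

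Among the 54 other fusion genes tested in HN5, STX6 and STX5 were 2 of the 6 with an unadjusted p under 0.05, although neither passed. STX6 was at 10.49 and 10.41 with miR-7 and 11.56 and 11.32 with miR-NC in HN5, a fold change of -0.99 (SE 0.19, adjusted p = 0.135). A different probe stood for STX6 in each line. STX5 was at 11.54 and 11.87 with miR-7 and 12.51 and 12.29 with miR-NC, a fold change of -0.69 (SE 0.21, adjusted p = 0.283). In both genes the HN5 groups did not overlap, which held for 48.2% of all genes tested in HN5. STX2 in HN5 had a fold change of 0.22 (SE 0.23, adjusted p = 0.675).

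Of 11 disassembly and Sec1/Munc18 (SM) proteins tested in FaDu, which unwind SNARE bundles or clasp them as they form, 4 were lower and 2 higher, or 54.5% against 41.8% of all genes. VPS33A, the SM subunit of the HOPS tether that guides syntaxin 17 and VAMP-type SNAREs at lysosomes, had a fold change of -0.37 (SE 0.07, adjusted p = 0.00422). NSF, the ATPase that alpha-SNAP recruits, had a fold change of -0.35 (SE 0.09, adjusted p = 0.0138). NAPB, the neuronal relative of NAPA, had a fold change of 0.36 (SE 0.07, adjusted p = 0.00467) and SCFD2, an SM family member, 0.60 (SE 0.13, adjusted p = 0.00632). SCFD2 was detected on 3 of 3 arrays labelled miR-7 and on 0 of 3 labelled miR-NC, so it entered the test only through the group where it is high, and without it 1 gene of this group was higher. VPS33B and STXBP5 were also lower, at -0.39 and -0.24.

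Of 12 tethers and their regulators tested in FaDu, 2 were lower and 2 higher, or 33.3% against 41.8% of all genes. TECPR1, an autophagosome tether on lysosomes, had a fold change of -0.59 (SE 0.07, adjusted p = 0.000229) and VPS18, a core subunit of HOPS, -0.23 (SE 0.07, adjusted p = 0.0285). VPS41, another HOPS subunit, had a fold change of 0.40 (SE 0.09, adjusted p = 0.00775), and the Golgi stacking protein gene GORASP2 had one of 0.19 (SE 0.06, adjusted p = 0.0451). Members of the same tether complex thus passed in opposite directions. Of 7 autophagosome and lysosome markers, LAMP2, a major lysosomal membrane protein, was lower, at -0.25 (SE 0.08, adjusted p = 0.0399), and 6 did not pass, so that 14.3% were called. MAP1LC3B, the LC3 of autophagosome membranes, missed the threshold narrowly, at -0.37 (SE 0.13, adjusted p = 0.0502), and was named after its value was seen.

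**Figure D3:**
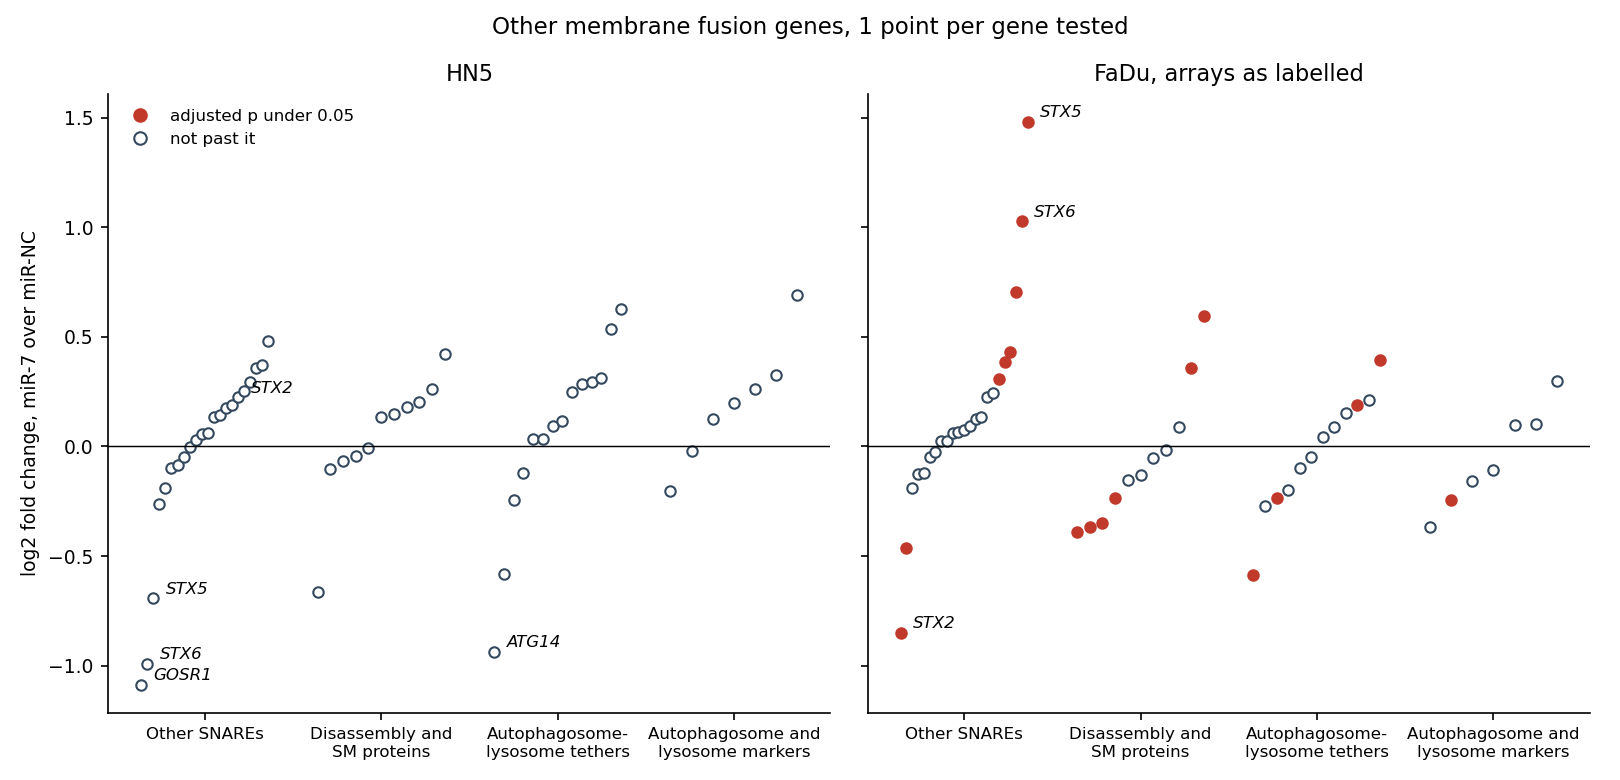
Log2 fold change of miR-7 over miR-NC (vertical axis) of each gene tested in the 4 groups of other fusion genes, in HN5 and in FaDu as labelled; filled red points passed an adjusted p of 0.05 and open points did not, and genes beyond 0.8 in either direction, STX5 and STX2 carry their names. STX5 (1.48) and STX6 (1.03) lie highest in FaDu and, at -0.69 and -0.99, among the lowest in HN5, where 0 of 54 genes passed. STX6 was read by a different probe in each line.

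For 2 further genes with low fold changes in HN5, named after their values were seen, the miR-7 arrays differed widely. GOSR1, a Golgi SNARE, was at 8.50 and 6.91 with miR-7 and 8.84 and 8.74 with miR-NC, a fold change of -1.09 (SE 0.51, adjusted p = 0.434). ATG14, a protein of the autophagy lipid kinase that also binds the syntaxin 17 and SNAP29 pair, was at 8.73 and 6.24 with miR-7 and 8.50 and 8.34 with miR-NC, a fold change of -0.94 (SE 0.77, adjusted p = 0.603). ATG14 was detected on 1 of 2 miR-7 arrays and on 2 of 2 miR-NC arrays, so it entered the test only through the miR-NC group. In both genes, miR-7 replicate 2, the HN5 array least like the rest, was far below the other 3 arrays.

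The genes whose pattern was most like that of SNAP29 were ranked by Pearson correlation over the 10 arrays, after subtracting each line's mean, among 8489 genes tested in both lines. The arrays share their line, label and group, so these correlations mainly restate fold changes of opposite sign in the lines, and they are a description. EGFR came first, with r = 0.997. It was followed by SYK, a tyrosine kinase (r = 0.995, with fold changes of -0.69 in HN5 and 0.77 in FaDu), and ADO, a thiol dioxygenase (r = 0.994, -1.07 and 1.14). VPS26A, a subunit of the retromer that recycles cargo from endosomes, had r = 0.993 (-1.49 and 1.71), and AGK, a mitochondrial lipid kinase, r = 0.993 (-1.72 and 1.86). Of the SNARE genes, VAMP8 was closest, with r = 0.84 and 708th of the 8489, and SNAP23 had r = 0.79. NAPA and STX4 had r of 0.52 and 0.42, STX17 -0.12, VAMP7 -0.35, STX3 -0.55 and STX7 -0.92.

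The promoters were read for the E-box CACGTG, a palindrome and so the same on both strands, because factors of the MYC, USF and TFEB families bind it and TFEB controls many lysosomal and autophagy genes. In RefSeq's windows from 250 bases before to 50 bases after each start, CACGTG was in 3 of the 9 genes found there (SNAP29, STX4 and NAPA) and in 8.77% of 27305 genes. The longer TCACGTGA, which contains the E-box, was in 1 of 9 (STX4) and in 1.18% of genes. The stretches of 30 bases around each match are shown with the E-box in capitals, to set the genes that hold it beside their values. SNAP29 was chosen for its large change and was not tested. NAPA passed in FaDu only, and STX4 passed in neither line. VAMP8, SNAP23 and STX7, which passed in FaDu, have no CACGTG in their windows. STX17, which also passed in FaDu, had no window to read. A match is a run of letters and not a site of binding. The windows lie on GRCh38.p14 at chr22:20858811-20858840 (SNAP29, plus strand, 184 bases before the start), chr16:31033284-31033313 (STX4, plus strand, 195 bases before), and chr19:47515260-47515289 and chr19:47515071-47515100 (NAPA, minus strand, 214 and 25 bases before).
SNAP29: cggctttcccgcCACGTGacctctcagttg
STX4: gaccgggctggtCACGTGacgcggtggggg
NAPA, far: cttccacagggtCACGTGggaggtgaggta
NAPA, near: gccagcgctagtCACGTGgttcctggccgc

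The fold change of SNAP29 was also set beside those of other genes under other ways of making the log2 values. In HN5 it was -1.35 without background correction, -2.11 with median scaling in place of quantile normalization, and -1.01 on the authors' log2 values. VAMP8 in FaDu, by contrast, was 1.60 without background correction, 1.74 with median scaling and 1.54 on the authors' values. Median scaling moved the median log2 fold change of all HN5 genes to -0.15, against 0.04 in the main setting, and 61.0% of the genes then called were lower, against 41.4%. None of the 9 fold changes in HN5 changed sign with it, but those of STX3, VAMP7 and STX7 came down to 0.01, 0.04 and 0.05.

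**Figure D4:**
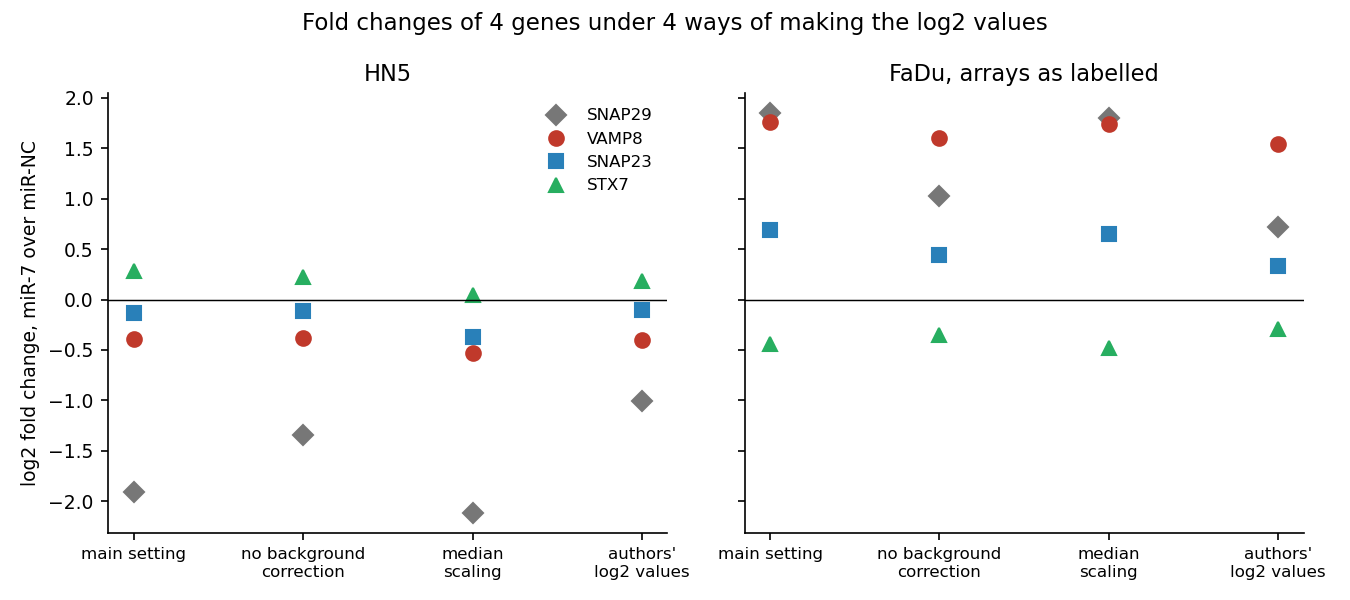
Log2 fold change of miR-7 over miR-NC (vertical axis) of SNAP29, VAMP8, SNAP23 and STX7 under 4 ways of making the log2 values from the arrays, in HN5 and in FaDu as labelled. SNAP29 ranged from -2.11 to -1.01 in HN5 and from 0.72 to 1.84 in FaDu, while VAMP8 in FaDu stayed between 1.54 and 1.76.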

How the data were processed

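The authors deposited 1 scanner intensity per probe and array, with no correction for background and no normalization, and beside it a detection p-value, written in the deposited files as 1 minus p. They also deposited log2 values, made with lumi in R 2.11.0 (per the labels' processing notes) and quantile normalization in Partek. The cells of those tables do not follow the probe names beside them and were set back into the order of the probes in the intensity tables, after which 0 ranks differed within an array. They served as an alternative only.

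Background was corrected by means of the detection p-values, and the arrays of a line were then quantile-normalized and logged to base 2 as in neqc of limma 3.58.1 (R 4.3.3, offset 16). A probe was kept when its detection p-value lay under 0.01 on all arrays of 1 group or more, and the brightest kept probe stood for its gene. Probes were named through the platform annotation, where 27577 of 48802 HN5 and 30112 of 47230 FaDu probes have 1 gene. Groups were compared with lmFit and eBayes of limma. The difference between lines used the moderated standard errors of both fits, with Welch-Satterthwaite degrees of freedom. The steps were tested on simulated data. Plots used Matplotlib 3.10.9. Only 2 or 3 arrays per group limit the precision.

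The genes and lists were chosen with earlier results of these data known. Named genes are the 10 members, EGFR, up to 4 genes per list and line with the smallest p among those called, and the 5 genes most like SNAP29. GOSR1, ATG14 and MAP1LC3B, and the called genes past the fourth of a list, were named outside that rule. Alternatives were no background correction, median scaling, other detection filters, the mean of all kept probes, the authors' log2 values, the methods' t-test, the replicate number as a block, a robust variance prior and leaving out each array.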

Additional observations from a re-analysis of the deposited data

Results flagged for a closer look

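Differences between the lines drew attention to VAMP8 and SNAP29. For VAMP8, the log2 fold change was -0.39 in HN5, which did not pass (adjusted p = 0.515), although both miR-7 arrays lay below both miR-NC arrays. It was 1.76 in FaDu, where all 3 arrays labelled miR-7 lay above all 3 labelled miR-NC. Groups did not overlap for 48.2% of all genes in HN5 and 53.5% in FaDu. The VAMP8 difference, HN5 minus FaDu as labelled, was -2.15 (SE 0.26, adjusted p = 0.00406 from the moderated standard errors of both limma fits). Without HN5 miR-NC replicate 2 it was -1.86 (adjusted p = 0.0612), where 1.58% of all probes passed against 15.4%. For SNAP29, every HN5 array with miR-7 lay below, and every FaDu array labelled miR-7 above, the arrays of its control, and the difference was -3.75. The difference for SNAP29 was not tested. The FaDu labels give EGFR the opposite direction to HN5 as well, at -1.67 in HN5 and 1.57 in FaDu.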

How the results depend on the processing

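In HN5, 0 of 8 genes other than SNAP29 passed in either direction under every alternative that kept all arrays. However, 0% of all genes passed without a detection filter, with the mean of all kept probes and by the adjusted t-test. Those settings could therefore show nothing about the 8. In the others that kept all arrays, the share of all genes ran from 0.115% (replicate block) to 4.76% (the study's thresholds). SNAP29 in HN5 was -1.35 without background correction, -2.11 with median scaling and -1.01 on the authors' log2 values, and -1.995 to -1.80 with 1 array left out. In FaDu SNAP29 was 1.02 without background correction and 0.72 on the authors' log2 values, and 1.74 to 1.89 with 1 array left out. The methods' t-test was also run in FaDu with the thresholds the study used (an unadjusted p of 0.05 with a fold of 1.5). It gave 0 members lower and 3 higher (NAPA, SNAP23 and VAMP8), where 12.4% of all genes passed. After Benjamini-Hochberg adjustment it gave 1 lower and 2 higher, where 30.7% of all genes passed. With 1 FaDu array left out, 2 to 4 members were higher (2 without miR-NC replicate 3) and 1 was lower. The share of all genes was then 32.4% to 36.8%. Of the other fusion genes in HN5, 1 was lower at the study's thresholds, where 4.76% of all genes passed. With a robust variance prior 1 was lower, where 2.68% passed. In FaDu, the study's thresholds gave 2 lower and 4 higher, 5 were higher with median scaling, and 5 to 9 were lower and 8 to 9 higher with 1 array left out (5 lower without miR-7 replicate 3). The difference between lines called 3 genes with detection required on every array (18.5% of all probes) and 0 with the FaDu signs turned (chosen after seeing the data), and 0 to 3 with 1 array left out: 0 without HN5 miR-NC replicate 2 (1.58% of all probes), 3 without HN5 miR-7 replicate 2 (19.7%), 2 without HN5 miR-7 replicate 1 (31.4%) and 2 without FaDu miR-7 replicate 3 (15.3%). The cause of these changes was not tested.

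Signs that turned belonged to genes not called. SNAP23 in HN5 was 0.056 without miR-7 replicate 1 and STX3 in HN5 -0.0029 without miR-7 replicate 2. NAPA in HN5 was 0.0026 without background correction, 0.0040 on the authors' log2 values, 0.28 without miR-7 replicate 1 and 0.10 without miR-NC replicate 1. STX4 in FaDu was -0.069 without miR-7 replicate 3. With 1 array left out, the ranges were -0.33 to 0.056 for SNAP23, -0.0029 to 0.39 for STX3, -0.31 to 0.28 for NAPA and -0.069 to 0.21 for STX4. A left-out HN5 array leaves a lone array in its group, which is taken to vary like the other group. Counts over all HN5 genes, 12 lower and 17 higher, were 1 and 10 with the replicate block, 211 and 244 at the study's thresholds, 116 and 140 with the robust prior, and 0 to 837 and 0 to 937 with 1 array left out, so 0 calls in HN5 says little of small changes. In FaDu, 2176 lower and 2003 higher became 1481 and 1221 with median scaling, and 525 and 719 at the study's thresholds.

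Deviations from the group mean on same-numbered arrays correlated at 0.000499 in HN5 and at 0.057, -0.032 and 0.028 in FaDu. The same number was the best match in HN5 and for FaDu replicates 1 and 3, but not for FaDu replicate 2. With 2 or 3 arrays per group, these values cannot decide whether equal replicate numbers mark paired arrays. With the replicate block, 0 of 8 members passed in HN5, against 0.115% of all genes. In FaDu, 1 lower and 4 higher passed with it, against 39.1% of all genes.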
